A study of Mus musculus with 4 samples.

Results

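The genes described here encode the subunits and assembly chaperones of the proteasome. They were chosen by symbol (Psma to Psmg followed by a digit), which took 50 of the 31053 genes in the feature table, and 48 of these were detected in at least 1% of the kept cells, as were 10474 genes in all. The remaining 2, Psmb11 and Psma8, which are known from the thymic cortex and the testis, had a unique molecular identifier (UMI, a tag that marks 1 captured mRNA molecule) in 0.0378% and 0.0486% of cells. The member just above the limit, Psme2b, was found in 4.73% of cells. Psmc3ip is taken by the symbol rule, although its product (HOP2) acts in meiotic recombination and is not a proteasome subunit.

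The scRNA-Seq experiment compared 2 preparations of regulatory B cells (Bregs) grown from purified splenic B cells of WT mice, with 2 samples each. Bregs-CpG were cultured for 3 days with CpG B ODN 1668, a TLR9 agonist. Bregs-TLR had the same 3 days with CpG and also received LPS, PMA, and ionomycin for the 5 hours before collection, so every cell had seen CpG. About 5000 cells per sample were loaded for droplet capture, and whether the samples came from separate mice or cultures is not given in the sources used here. The purified cells were whole splenic B cells rather than a sorted subset.

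Of 19920 barcodes, 18534 passed the limits for kept cells (1000 detected genes or more, and less than 10% of UMIs from mitochondrial genes). Barcodes end in a library number from 5 to 8, and no label pairs a library with a sample. The 4 libraries are therefore in no group, each is given by itself, and no test between Bregs-CpG and Bregs-TLR was made. They kept 4003 to 5621 cells with 44842982 to 63638158 UMIs, and 29 barcode sequences occurred in 2 libraries. Median mitochondrial shares were 7.22%, 7.18%, 4.61%, and 4.65% in libraries 5, 6, 7, and 8, and median UMIs per cell were 8752, 8785, 10355, and 10077. All 5 B cell markers were detected, with a summed level of 13740, 14267, 7328, and 7239 UMIs per 1000000 UMIs of the library (CPM). The 6 T cell markers summed to at most 0.788 CPM, with Cd3e, Cd4, and Cd8a at 0, the 3 NK cell markers were at 0, and the 5 myeloid markers summed to at most 7.75 CPM, with Lyz2 and S100a8 at 0. The 7 plasma cell markers summed to 1614, 1779, 389.8, and 339 CPM, with Mzb1 at 1441, 1548, 154, and 157 CPM. These markers did not move together. Derl3 was lower in libraries 7 and 8 like Mzb1, but Xbp1 (84.7, 91.7, 112, and 107 CPM) and Sdc1 (0.201, 0.213, 7.45, and 6.15 CPM) were higher there. Jchain and Txndc5 overlapped between libraries 5 and 6 and libraries 7 and 8, and Tnfrsf17 was at most 0.136 CPM. The 4 erythroid markers summed to 4.59, 4.30, 219, and 285 CPM, nearly all from Hbb-bt, with Hba-a1 and Hba-a2 at 0. B cell, plasma cell (mostly through Mzb1), and erythroid sums and the mitochondrial share thus moved with the proteasome genes across libraries. Their part in the results was not tested.

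The proteasome degrades proteins that carry ubiquitin chains. Its barrel-shaped 20S core has outer alpha rings and inner beta rings, and the 19S regulatory particle recognizes, unfolds, and feeds in substrates. Immune cells can build the core with the inducible catalytic subunits PSMB8, PSMB9, and PSMB10 in place of PSMB5, PSMB6, and PSMB7. The resulting immunoproteasome, together with the PA28 activator (PSME1 and PSME2), yields peptides suited to MHC class I, and interferons are known to induce these genes. Spleen B cells are known to contain much immunoproteasome.

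Psmb8 (ENSMUSG00000024338) and Psmb9 (ENSMUSG00000096727) lie in the MHC on chromosome 17, with Tap1 between them, at 34197721 to 34201454 on the plus strand and at 34181987 to 34187764 on the minus strand (GRCm38, equal to mm10 in its chromosomes). Psmb9 and Tap1, a subunit of the peptide transporter, are read in opposite directions from RefSeq starts 226 bases apart. Psmb10 lies on chromosome 8 (105935735 to 105938444, minus strand). The standard catalytic genes are dispersed, with Psmb5 on chromosome 14 (54614119 to 54618022, minus strand), Psmb6 on chromosome 11 (70525367 to 70527858, plus strand), and Psmb7 on chromosome 2 (38588036 to 38644087, minus strand). Psme1 and Psme2 are neighbors on chromosome 14 (55578123 to 55581529, plus strand, and 55587441 to 55591113, minus strand).

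The promoters of an inducible pair and of the standard subunit that PSMB8 replaces are shown from 250 bases before to 50 bases after the RefSeq start (GRCm38.p6, gene strand), because these genes moved in opposite directions between libraries. Capitals mark matches on either strand to the interferon gamma activated site (GAS, TTCNNNGAA) or the interferon-stimulated response element (ISRE, GAAA and GAAA with 2 bases between them). Psmb8 is from chr17:34197945-34198244 (plus), Psmb9 from chr17:34187281-34187580 (minus), and Psmb5 from chr14:54617946-54618245 (minus).
Psmb8: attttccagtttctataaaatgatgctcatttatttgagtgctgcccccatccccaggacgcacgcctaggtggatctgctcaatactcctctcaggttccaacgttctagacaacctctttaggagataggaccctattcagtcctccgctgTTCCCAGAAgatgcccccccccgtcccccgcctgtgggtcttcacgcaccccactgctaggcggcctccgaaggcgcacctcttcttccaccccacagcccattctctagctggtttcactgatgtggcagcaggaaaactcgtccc
Psmb9: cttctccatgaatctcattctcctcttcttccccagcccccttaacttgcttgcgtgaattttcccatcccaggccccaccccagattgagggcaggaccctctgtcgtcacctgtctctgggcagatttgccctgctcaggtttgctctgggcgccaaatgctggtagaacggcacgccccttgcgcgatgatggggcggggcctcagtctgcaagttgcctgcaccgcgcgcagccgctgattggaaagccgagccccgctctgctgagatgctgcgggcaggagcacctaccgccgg
Psmb5: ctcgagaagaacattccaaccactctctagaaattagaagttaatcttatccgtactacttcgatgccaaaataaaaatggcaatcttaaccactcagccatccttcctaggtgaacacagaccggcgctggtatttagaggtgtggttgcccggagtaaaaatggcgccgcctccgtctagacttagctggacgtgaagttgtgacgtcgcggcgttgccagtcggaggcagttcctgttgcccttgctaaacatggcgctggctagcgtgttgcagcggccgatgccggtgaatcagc
The Psmb8 window held 1 GAS match, and the other windows printed held neither motif, nor did that of Psmb10. The Psmb8 and Psmb9 windows lie wholly within the gene spans given above, which start further upstream than the RefSeq starts used here. Bases before those upstream starts were not searched for these genes. These motifs, which were chosen after expression values had been seen, are short, and a GAS and an ISRE match can share bases. A RefSeq promoter was matched for 41 of the 48 members, of which 3 held GAS (Psmb8, Psmd2, and Psmg1) and 5 held ISRE (Psmb3, Psmd4, Psmd9, Psme1, and Psmg4), against 8.30% and 3.44% of 32851 promoters of the same length. The antioxidant response element (TGA and GCA with 4 bases between them) was found in 5 of 41 members and 12.96% of all promoters, and the kB motif (GGGA and CC with 4 bases between them) in 11 of 41 and 20.7%. Members were counted by gene, with a match in any of its RefSeq windows, whereas the shares of all promoters count each window by itself. A match describes letters in this window and does not show binding.

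The inducible catalytic genes were higher in libraries 5 and 6 than in libraries 7 and 8, and the standard ones were lower. Psmb5, which codes for the chymotrypsin-like subunit, stood at 192, 199, 345, and 332 CPM in libraries 5, 6, 7, and 8. Psmb6, the caspase-like subunit, was at 142, 149, 262, and 257 CPM. Psmb7, the trypsin-like subunit, was at 63.2, 64.5, 112, and 103 CPM. For each of the standard genes, libraries 7 and 8 thus lay above libraries 5 and 6 without overlap, as they did for 51.0% of all genes tested. Intervals below are 95% and cover counting error only, not the spread between mice or cultures. The ratio of library 7 to library 5 was 1.80 for Psmb5 (1.75 to 1.84), 1.85 for Psmb6 (1.80 to 1.90), and 1.78 for Psmb7 (1.70 to 1.86). Library 8 against library 6 gave 1.67, 1.73, and 1.59, and PSMB5 is the subunit that proteasome inhibitors such as bortezomib bind.

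The inducible partners went the other way. Psmb8, which replaces PSMB5, was at 531, 555, 342, and 343 CPM. Psmb9, which replaces PSMB6, was at 121, 131, 45.9, and 42.7 CPM. Psmb10, which replaces PSMB7, was at 128, 125, 66.2, and 62.2 CPM. All 3 were highest in libraries 5 and 6, again without overlap (39.6% of all genes tested), and Psmb9 had the widest range. Its ratio of library 7 to library 5 was 0.378 (0.361 to 0.396), compared with 0.515 (0.495 to 0.536) for Psmb10 and 0.643 (0.631 to 0.655) for Psmb8. For library 8 against library 6 the ratios were 0.326 (0.310 to 0.343), 0.499 (0.478 to 0.522), and 0.618 (0.606 to 0.630).

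**Figure D1:**
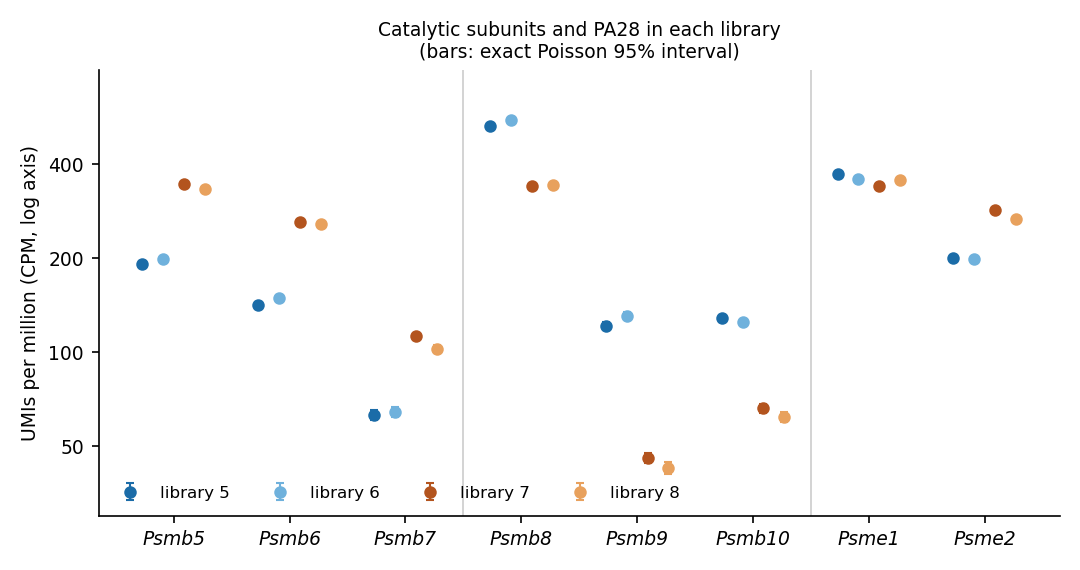
Levels in CPM of the 3 standard catalytic genes, the 3 inducible ones, and the PA28 genes in libraries 5 to 8, on a log axis with exact 95% Poisson intervals. Psmb5, Psmb6, and Psmb7 sit higher in libraries 7 and 8, Psmb8, Psmb9, and Psmb10 sit lower there, and Psme1 stays between 341 and 372 CPM.

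The PA28 genes, which are also part of the interferon-linked set, did not share this pattern. Psme1, the alpha subunit of PA28, was at 372, 359, 341, and 356 CPM, the narrowest range of any member with at least 10 CPM in every library (highest over lowest 1.09). Its ratio was 0.917 (0.898 to 0.935) for library 7 to 5 and 0.994 (0.973 to 1.02) for library 8 to 6. Psme2, the beta subunit, was at 201, 199, 285, and 266 CPM, higher in libraries 7 and 8 like the standard genes, with ratios of 1.42 (1.38 to 1.46) and 1.34 (1.30 to 1.38). Of the 5 immunoproteasome genes, 4 (all but Psme2) were thus lower in libraries 7 and 8, beside 39.6% of all genes tested. For Psme1, however, the interval of library 8 to 6 held 1. Psme2b, a near copy of Psme2 on another chromosome, was the lowest member over all kept cells (4.50 CPM), at 7.60, 7.34, 2.14, and 1.53 CPM, and counts of such copies are uncertain because their reads can be split.

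The share of catalytic UMIs that came from the inducible genes (Psmb8, Psmb9, and Psmb10 among all 6) does not depend on how totals are scaled. It was 66.3% (65.9 to 66.7) in library 5 and 66.3% (65.9 to 66.7) in library 6, but 38.7% (38.3 to 39.0) in library 7 and 39.3% (38.9 to 39.7) in library 8. The libraries therefore formed a high and a low pair, with both pairs differing internally by less than 1 percentage point. Over all kept cells the share was 52.0%, a value that no single library had. Within subunit positions, Psmb8 held 73.4%, 73.6%, 49.7%, and 50.8% of the UMIs it shared with Psmb5. Psmb9 held 46.2%, 46.8%, 14.9%, and 14.2% of those shared with Psmb6. Psmb10 held 67.01%, 65.9%, 37.0%, and 37.7% of those shared with Psmb7. At the PSMB6 position the standard gene thus had more UMIs in every library, whereas at the PSMB7 position the order of UMIs switched between the pairs. Whether the genes are captured equally was not tested. UMIs come from the 3' end and count molecules, so levels between genes were not divided by length.

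**Figure D2:**
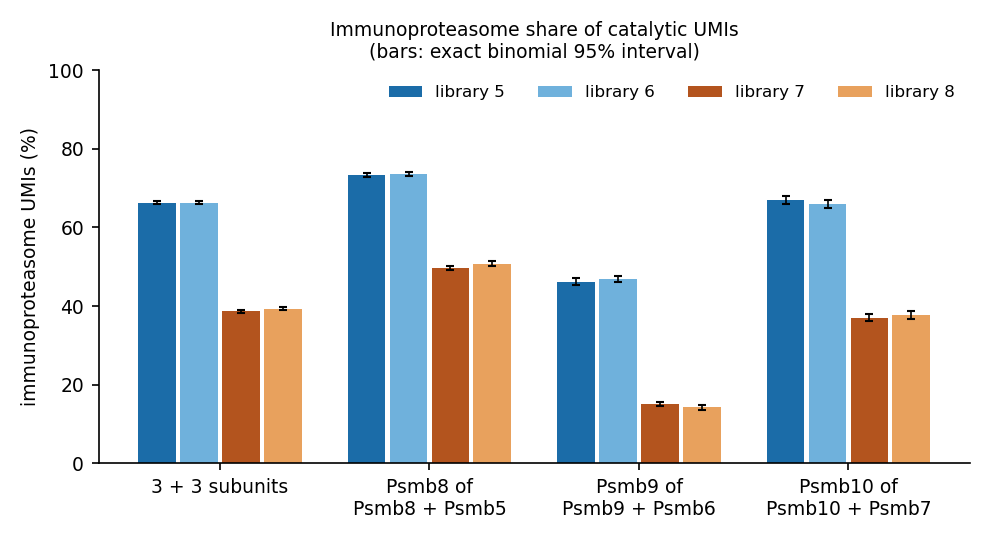
Percent of catalytic UMIs from the inducible gene in each library, for all 6 genes and for each pair of partners, with exact 95% Clopper-Pearson intervals. All bars of inducible shares are lower in libraries 7 and 8, and the share of Psmb9 is lowest, at 14.2% to 46.8%.

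The shift ran through the whole distribution of cells. Among cells with at least 5 catalytic UMIs (3916, 4453, 5278, and 3713 cells), the median share of inducible UMIs per cell was 66.7%, 66.7%, 37.5%, and 38.5%. The quartiles were 57.1% and 77.6% in library 5, 57.1% and 76.9% in library 6, 27.3% and 50% in library 7, and 27.8% and 50% in library 8. More inducible than standard UMIs were found in 84.1% and 83.9% of cells of libraries 5 and 6, and in 19.5% and 20.01% of libraries 7 and 8. The ranges of cells overlapped between libraries. Over all kept cells, without the limit of 5, a cell had a median of only 10 to 12 catalytic UMIs, so counting error alone spreads the shares of single cells. Also over all kept cells, the mean number of inducible UMIs per cell was 8.35, 8.88, 5.14, and 5.11, and that of standard UMIs was 4.24, 4.52, 8.14, and 7.90.

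**Figure D3:**
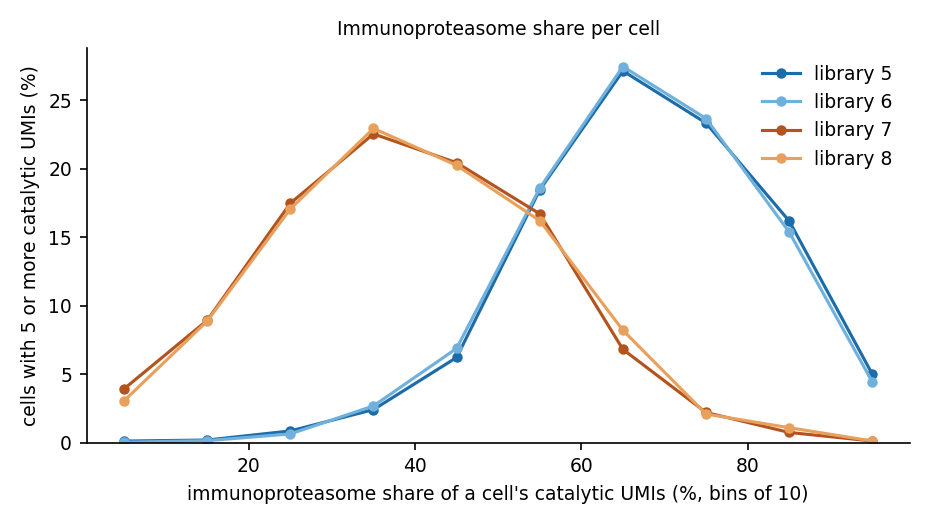
Distribution over cells of the inducible share of catalytic UMIs in each library, for cells with at least 5 catalytic UMIs, in percent of cells per bin of the share. Libraries 5 and 6 center at medians of 66.7% and libraries 7 and 8 at 37.5% and 38.5%, with overlapping flanks.

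When each cell was thinned to 3000 UMIs, Psmb9 was found in 31.1%, 32.3%, 13%, and 11.7% of cells (65.2%, 69.6%, 37.6%, and 35.9% unthinned). Psmb5 was found in 42.9%, 44.7%, 64.6%, and 62.9% of thinned cells (80.1%, 82.3%, 94.8%, and 94.2% unthinned). The direction in both genes was that of the CPM. No cell type that lacks the standard genes was present to set a background from free RNA, and its part in these shares was not tested.

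With the catalytic genes counted too, most members were higher in libraries 7 and 8. Of the 48 members, 40 had both of these libraries above both others, as had 51.0% of all genes tested, and 7 had both below (39.6% of all genes): Psmb1, Psmb8, Psmb9, Psmb10, Psmd10, Psme1, and Psme2b. Only Psme4 overlapped between the pairs. By a ratio of at least 1.5, a limit of size and not a test, 29 members were higher and 4 lower in library 7 than in library 5, where 30.3% of all genes were higher and 22.0% lower. Library 8 against library 6 gave 27 higher and 4 lower (25.7% and 24.3% of all genes), library 8 against 5 gave 27 and 4 (27.2% and 23.2%), and library 7 against 6 gave 29 and 4 (28.5% and 23.1%). The 4 lower members were Psmb8, Psmb9, Psmb10, and Psme2b in each of these comparisons. Between libraries 6 and 5 and between 8 and 7 no member passed, against 0.573% of genes higher and 0.334% lower in the first and 0.573% and 1.20% in the second. At a ratio of 2, 12 members were higher and 2 lower in library 7 to 5 (15.6% and 14.1% of genes), 9 and 3 in library 8 to 5 (14.0% and 14.9%), 11 and 2 in library 7 to 6 (14.8% and 14.7%), and 9 and 3 in library 8 to 6 (13.3% and 15.4%). At the lower limit of 5 to 4, 1 member (Psme2b) was lower and 0 higher in library 8 to 7 (4.0% and 2.20% of genes). The median member ratio was 1.69 for library 7 to 5 and 1.57 for 8 to 6, beside 1.13 and 1.05 over all genes. All members together summed to 6250, 6300, 9111, and 8742 CPM.

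**Figure D4:**
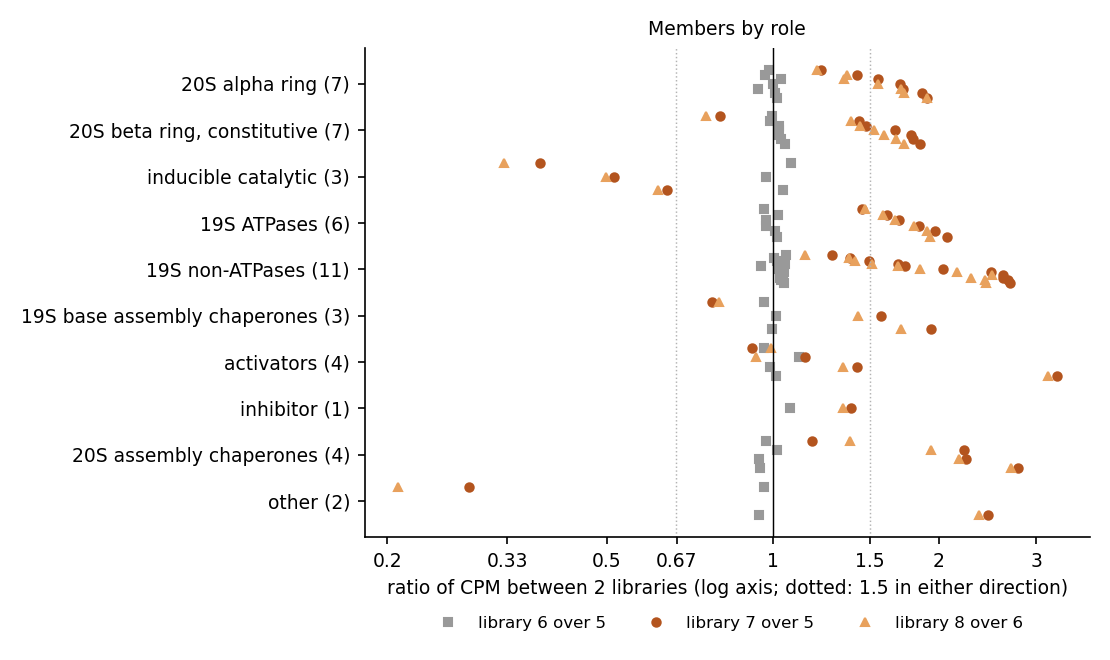
Ratio of CPM between 2 libraries for each member, grouped by role, on a log axis, with dotted lines at 1.5 in either direction. For library 7 to 5 and 8 to 6 the inducible catalytic genes lie below 1 and the ATPases, the other 19S subunits, and the alpha ring above 1, while library 6 to 5 (squares) lies near 1.

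In the alpha ring, the gate of the core, all 7 members were higher in libraries 7 and 8, beside 51.0% of all genes tested. They summed to 1442, 1430, 2387, and 2263 CPM. Psma7 ranged most, at 277, 281, 527, and 535 CPM, and was the second most abundant member over all kept cells after Psmb8 (412 and 437 CPM). Psma1 ranged least, at 152, 149, 186, and 179 CPM. Even the ring gene with the smallest range thus had libraries 7 and 8 above the others, but subunits that sit in the ring in equal number did not differ by equal ratios (1.22 to 1.90 for library 7 to 5).

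In the standard beta ring, 6 of 7 genes were higher in libraries 7 and 8, beside 51.0% of all genes tested. The exception was Psmb1, a noncatalytic ring subunit and the third most abundant member (382 CPM), at 433, 431, 347, and 326 CPM, with ratios of 0.803 (0.788 to 0.819) and 0.758 (0.742 to 0.774). Within this ring the highest gene exceeded the lowest 6.85-fold and 6.68-fold in libraries 5 and 6 and 3.09-fold and 3.24-fold in libraries 7 and 8. The highest gene was Psmb1 in libraries 5, 6, and 7 and Psmb5 in library 8, and the lowest was Psmb7 in each library. This measure rests on those genes only and does not describe the other ring members. Among the 3 inducible genes the spread was 4.37-fold, 4.45-fold, 7.43-fold, and 8.03-fold. In the alpha ring the spread was 2.496-fold, 2.45-fold, 3.07-fold, and 3.47-fold.

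All 6 ATPases of the 19S base, which unfold substrates, were higher in libraries 7 and 8, and they summed to 498, 496, 900.4, and 869 CPM. Of all genes tested, 51.0% had this order. Psmc4 ranged most (101.3, 103, 209.9, and 199 CPM) and Psmc1 least (56.4, 54.4, 82.0, and 80.0 CPM). The 11 other 19S subunits were all higher too, and 8 of 11 passed the ratio of 1.5 in library 7 to 5 and in library 8 to 6 (30.3% and 25.7% of all genes). Psmd12, a lid subunit, was at 84.5, 88.3, 227, and 215 CPM, a ratio of 2.69 (2.59 to 2.78) and 2.43 (2.35 to 2.52). Psmd14, the deubiquitinase of the lid, ranged least, at 175, 185, 224, and 211 CPM. The subunit that removes ubiquitin and a subunit of the same lid thus differed in how far they were higher.

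Of the chaperones that assemble the base, Psmd5 was at 17.8, 17.7, 34.4, and 30.3 CPM, whereas Psmd10 (gankyrin) was at 62.4, 60.2, 48.4, and 48.0 CPM, lower in libraries 7 and 8 like the inducible genes. All 4 chaperones that assemble the core, Psmg1 to Psmg4, were higher in libraries 7 and 8 (51.0% of all genes tested). Psmg1 ranged most, at 18.1, 17.1, 50.3, and 46.3 CPM, and Psmg4 least, at 68.6, 66.7, 80.6, and 92.0 CPM. The widest range among members with at least 10 CPM in every library was that of an activator, Psme3 (PA28 gamma, found in the nucleus), at 29.1, 29.5, 95.2, and 93.1 CPM, a ratio of 3.27 (3.08 to 3.48) and 3.15 (2.97 to 3.34). The activator Psme4 (PA200) stayed at 19.3, 21.5, 22.0, and 20.03 CPM, and the inhibitor Psmf1 (PI31) was at 17.2, 18.6, 23.9, and 24.9 CPM. The 3 PA28 genes were thus at very different ranges, from 1.09 for Psme1 to 3.27 for Psme3. Psmc3ip was at 12.4, 11.7, 30.4, and 27.7 CPM.

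Genes around the proteasome were counted from lists fixed by function. Of 7 associated and assembly factors in the feature table, 5 were higher by the ratio of 1.5 in library 7 to 5 and 4 in library 8 to 6, and none was lower, beside 30.3% and 25.7% of all genes higher. Pomp, the maturation factor of the core, was at 246, 243, 595, and 588 CPM, and the deubiquitinase Usp14 at 39.9, 40.5, 109, and 106 CPM. Adrm1, a ubiquitin receptor, was at 35.9, 36.4, 76.1, and 63.1 CPM. Sem1, a 19S subunit outside the symbol rule, went the other way, at 412, 390.2, 372, and 383 CPM. Of 6 regulators of proteasome genes, 3 and 1 were higher and none lower, and 1 of 6 is not above the 25.7% of all genes higher in library 8 to 6. Nfe2l1, a transcription factor that induces proteasome genes, was at 33.5, 31.5, 51.9, and 49.7 CPM, and Ddi2, the protease that activates it, at 14.8, 16.7, 24.4, and 24.6 CPM. Nfe2l2 was at 31.0, 29.5, 23.9, and 21.0 CPM and Ngly1 at 14.9, 16.4, 11.9, and 11.7 CPM, both in the other direction.

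Of 14 genes of ubiquitin and substrate delivery, 9 were higher in library 7 to 5 and 5 in library 8 to 6 (30.3% and 25.7% of all genes), and none was lower. Vcp, an unfoldase that hands substrates to the proteasome, was at 136, 135, 249.6, and 236 CPM, and Uba6, an E1 enzyme, at 27.8, 27.7, 48.7, and 46.9 CPM. Rad23b, a shuttle that carries ubiquitinated substrates, was at 50.7, 52.4, 87.02, and 80.7 CPM. These 3 genes were higher in libraries 7 and 8 without overlap, as were 51.0% of all genes tested.

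Of 11 interferon-linked regulators and class I loading genes, 6 were lower and 1 (Erap1) was higher in library 7 to 5 (22.0% of all genes lower and 30.3% higher) and in library 8 to 6 (24.3% and 25.7%). Irf8 was at 537, 560.3, 203, and 196 CPM, Tap1 at 62.0, 69.0, 29.3, and 28.7 CPM, and Irf2 at 166, 168, 73.4, and 78.3 CPM. Psmb8, Psmb9, and Psmb10 thus had the order of Tap1 and most of this list, with libraries 7 and 8 both below libraries 5 and 6. Of all genes tested, 39.6% had this order. Psmb1, Psmd10, Psme1, and Psme2b had it too, and no other member did. For Psme1 the ratio of library 8 to 6 was 0.994, with an interval that held 1 (0.973 to 1.02). Tap2 and Tapbp overlapped between the library pairs.

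Within a library, cells could be compared by a marker gene, a contrast of cells that says nothing of the conditions. Il10, which encodes a cytokine widely used to mark regulatory B cells, had a UMI in 314, 351, 3950, and 2868 cells of libraries 5 to 8. The authors report suppression by Bregs-TLR that depended on TGF-β and not on IL-10. Cells with an Il10 UMI are therefore not taken here as the suppressive ones. In these cells the inducible share minus that of the other cells of the same library was -3.63, -3.496, -1.78, and -1.86 percentage points, with intervals that do not hold 0 (-4.92 to -2.35 in library 5 and -2.84 to -0.879 in library 8). The differences within a library were thus small beside the gap between the library pairs. In Il10 cells of libraries 5 to 8 the standard genes were at 1.16-fold, 1.11-fold, 0.994-fold, and 0.996-fold of the other cells. The inducible genes were at 0.986-fold, 0.951-fold, 0.922-fold, and 0.921-fold. Intervals held 1 for the standard genes in libraries 7 and 8 and for the inducible genes in library 5. Of 48 members, 11 were higher in Il10 cells in all 4 libraries and 4 were lower, compared with 20.6% and 9.20% of all genes. The rest differed in direction between libraries. All members together were at 1.10-fold, 1.07-fold, 0.985-fold, and 0.989-fold in Il10 cells of libraries 5 to 8, with intervals that left out 1. In cells of 8000 to 12000 UMIs the values of libraries 7 and 8 were 0.994-fold and 0.999-fold, with intervals that held 1. Cells with a marker UMI had more UMIs in all, a median of 12199.5 against 8566 in library 5, and in cells of 8000 to 12000 UMIs the Il10 difference was -5.08, -5.27, -1.85, and -1.86 points.

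**Figure D5:**
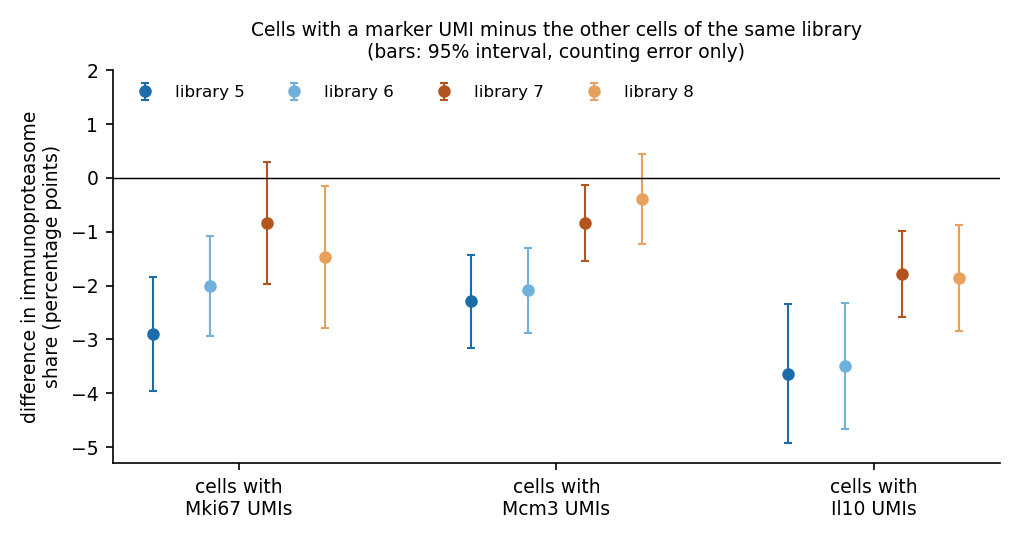
Difference in the inducible share of catalytic UMIs, in percentage points, between cells with and without a marker UMI in each library, with 95% counting intervals. The points lie below 0 in all 4 libraries, and the intervals of Il10 cells do not reach 0.

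Cells with a UMI of Mki67, a gene of cycling cells, had a difference in share of -2.90, -2.02, -0.838, and -1.47 points, the third with an interval that held 0, but in cells of 8000 to 12000 UMIs the differences were -0.121, -0.691, 1.35, and -2.60 points with intervals that held 0, so the direction was not stable. For Mcm3, a gene of DNA replication, the difference was -2.29, -2.09, -0.832, and -0.392 points, the last with an interval that held 0. In cells of 8000 to 12000 UMIs it was -0.200, -0.797, -0.838, and -1.74 points, and there the intervals of libraries 5, 6, and 7 held 0 and that of library 8 did not. Of the 48 members, 13 were higher and 9 lower in Mki67 cells of all libraries (26.5% and 15.8% of all genes), and 12 and 6 in Mcm3 cells (26.1% and 16.5%). The rest differed in direction between libraries. All members together were at 1.07-fold, 1.07-fold, 0.949-fold, and 0.935-fold in Mki67 cells of libraries 5 to 8. In Mcm3 cells they were at 1.06-fold, 1.07-fold, 0.981-fold, and 0.986-fold, and no interval of either marker held 1. In cells of 8000 to 12000 UMIs, the interval of Mki67 cells of library 5 held 1 (0.988 to 1.06). Psmc3ip stood apart, at 4.70-fold, 4.08-fold, 1.74-fold, and 1.82-fold in Mki67 cells and 3.87-fold, 4.15-fold, 2.42-fold, and 3.06-fold in Mcm3 cells. The inducible genes did not act as a block in Mki67 cells, where Psmb9 was at 1.33-fold, 1.31-fold, 1.16-fold, and 1.15-fold and Psmb10 at 0.85-fold, 0.86-fold, 0.69-fold, and 0.81-fold. Psmb8 was at 1.03-fold, 1.04-fold, 0.96-fold, and 0.89-fold, and Psme1 at 0.82-fold, 0.85-fold, 0.78-fold, and 0.79-fold. These ratios of single genes are from all kept cells and are not given for cells of 8000 to 12000 UMIs.

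Cells with 10 or more Jchain UMIs, a gene of antibody-secreting cells, numbered at least 50 only in library 7, where 52 cells stood against 5569. All members summed to 6120 CPM in them and to 9147 CPM in the others, and their inducible share was 31.6% against 38.7%. Of the members, 44 were lower and 4 higher in these cells (70.2% and 29.8% of all genes), with 1 library to show it.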

How the data were processed

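Single-cell RNA-Seq was made from 4 samples (2 Bregs-CpG and 2 Bregs-TLR). The deposited values are whole UMI counts per gene and barcode, which the authors made with bcl2fastq and Cell Ranger 3.1.0 on mm10 and combined with its aggr step, whose mode is not given in the sources used here. That step evens out read depth between libraries, so UMIs per cell are not raw depth. The matrix has 35989 columns and the list 19920 barcodes. The barcodes were placed on the last 19920 columns in order, with 16069 earlier columns left aside. As a check made after the values were seen, the largest step within 1500 columns lay 39 columns before the start of library 6 and 85 after that of library 8 for Hist1h2ap, and 32 after that of library 7 for Psmb9. The other starts (-396 columns for Hist1h2ap at library 7, and 236 and 277 for Psmb9 at libraries 6 and 8) had similar levels on both sides. Leaving out 200 columns at each side of the starts was an alternative.

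Cells were kept with at least 1000 genes and under 10% mitochondrial UMIs, which removed 559 and 1110 barcodes (some failed both). No doublet caller was used; instead the 5% of cells with the most UMIs were left out as an alternative. UMIs were summed per library and divided by all kept UMIs (CPM). Intervals at 95% were computed exactly with SciPy 1.17.1 (Poisson for CPM, conditional for ratios, Clopper-Pearson for shares), while those of differences between shares use the normal approximation. The count code was tested on simulated data. edgeR 4.0.16 served only for TMM factors, because libraries in no group allow no count test, and the planned sums per sample were not compared. Thinning drew 3000 UMIs per cell, which 4191, 4706, 5600, and 3986 cells of libraries 5 to 8 reached.

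Members, lists, and tests were chosen with earlier results of these data known. Named in full were the 6 catalytic and 2 PA28 genes, and with values the 3 members of highest and of lowest CPM, the member of widest and of narrowest range in each role (at least 10 CPM in every library), and the 3 widest of each other list. Erap1, Sem1, and Ngly1 were added after their values were seen. Some planned genes are not reported here. Positions are from GENCODE M21 (GRCm38), not the release the authors counted on, and promoters from RefSeq.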

Additional observations from a re-analysis of the deposited data

How the results depend on the processing

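No paired analysis was possible because the libraries carry no sample or replicate number, and with no groups no test was lost or gained under any setting. Of the values recomputed for the comparisons, 97 stayed within their counting interval or 1.5 times the count and 36 moved. Of the ratios of single members for library 7 to 5, 316 stayed within their counting interval and 116 moved, among them 44 of 48 with TMM factors and 47 of 48 relative to UMIs outside immunoglobulin, ribosomal protein, and mitochondrial genes, so the intervals of single ratios do not cover the choice of scaling. The sign changed for the Mki67 difference in library 7, whose interval held 0 in both settings. The order of libraries in 40 members above and 7 below was unchanged in count under every scaling and filter run, except 6 below without the 5% of cells with the most UMIs and 8 with no filter on detection. The median gene had a log2 ratio of 0.17 for library 7 to 5, which was 0.05 with TMM factors and -0.02 (a change of sign) relative to UMIs outside those genes. The median member ratio for library 7 to 5 was then 1.56 and 1.48 in place of 1.69. Members higher by 1.5 were 26 and 22 in place of 29, with 4 lower in each. Shares of all genes, past 1.5 or by the order of libraries, are not given for the other scalings and filters. The counts of members above and below and past 1.5 under these settings thus have no background beside them.

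The inducible share was 66.8%, 38.0%, and 38.7% in libraries 5, 7, and 8 as a mean over cells, and 67.4% and 66.8% in libraries 5 and 6 after thinning. Over all cells it was 52.3% with mitochondrial UMIs under 20%, and 47.0% to 57.9% with each library left out (47.0% without library 6, 48.0% without 5, 55.5% without 8, and 57.9% without 7), since libraries differ. With a ratio of 2 the members past it numbered 14, 12, 13, and 12 in libraries 7 to 5, 8 to 5, 7 to 6, and 8 to 6. For library 8 to 7 there was 1 after thinning, 1 at the lower limit of 5 to 4, and 1 with no filter on detection, which also gave 1 for library 6 to 5. The share of all genes is not given after thinning or with no filter on detection, so those counts have no background beside them.

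In cells of 8000 to 12000 UMIs, the share of Mki67 cells minus the others was -0.121, -0.691, and 1.35 points in libraries 5, 6, and 7, that of Mcm3 cells -0.200, -0.797, and -1.74 in libraries 5, 6, and 8, and that of Il10 cells -5.08 and -5.27 in libraries 5 and 6. The member ratio was 1.02, 1.08, 0.922, and 0.894 for Mki67 in libraries 5 to 8, 1.03, 1.05, and 0.992 for Mcm3 in libraries 5 to 7, and 1.09, 0.994, and 0.999 for Il10 in libraries 6 to 8. The cause was not tested.

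Depth limits single cells to a median of 10 to 12 catalytic UMIs. With no library tied to a sample, counting intervals leave out the spread between cultures, and sample, culture, and library cannot be told apart.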

Other observations

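Hist1h2ap, a histone gene noticed after values had been seen, differed within the otherwise close library pairs. It was at 93.3, 35.3, 53.5, and 15.1 CPM in libraries 5, 6, 7, and 8 (ratios of 0.379 for library 6 to 5 and 0.282 for library 8 to 7). It belongs to a family of near-identical copies, so its counts are uncertain.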
